A study of Homo sapiens with 12 samples.

Results

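The regions described here are stretches of the genome that had an accessible-chromatin peak whenever FOXA2 or SOX2 was expressed in U2OS cells, with or without the FOXA2 CTD, and no peak in any wild-type list. They number 1074 of the 399183 regions (0.269%) obtained by merging the peaks of 9 lists on the 22 autosomes and the X chromosome. The members were chosen by the presence of peaks: a region needed a peak in all 6 lists from construct-expressing cells and in none of the 3 wild-type lists. Presence in the lists is therefore a description of how the set was made and was given no test.

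Chromatin accessibility was measured by ATAC-seq, in which a transposase cuts and tags DNA that is not tightly packaged, in U2OS, an established human osteosarcoma line. The 12 samples form 6 groups of 2. Induced cells carried a Tet-on transgene and received 500 ng/ml doxycycline for 4 days. Per the series description, the proteins were Flag-tagged. The samples are split here into 2 sets by the layout of their peak lists. The labels used here do not say whether these were separate experiments. One, called the FOXA2 set, held full-length FOXA2, FOXA2dCTD (FOXA2 with its CTD deleted) and wild-type U2OS, with 1 peak list for each library. The other, called the SOX2 set, held full-length SOX2, the fusion SOX2FOXA2CTD (SOX2 joined to the FOXA2 CTD) and a further wild-type group whose label names the SOX2 cell line. It has 1 list for each group, made from a pair of inputs and holding only peaks found in both. The labels do not say whether that wild type is the parental line or an uninduced one. For wild-type cells no treatment is entered, although a protocol text common to all samples names doxycycline. If wild-type cells were untreated, doxycycline and the constructs cannot be told apart. The titles call the 2 samples of a group biological replicates. How they were grown and how many clones a line represents are not given in the sources used here.

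FOXA2 and SOX2 are both pioneer transcription factors, proteins that can bind DNA wrapped on nucleosomes and make it accessible. FOXA2 binds through a winged-helix forkhead domain and is known for directing endoderm and liver development. SOX2 binds through an HMG box that bends DNA and is known for its part in pluripotency and neural progenitors. The 2 factors recognise different short DNA sequences, and neither defines bone-derived cells such as U2OS. The CTD lies outside the DNA-binding domain of FOXA2.

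The lists differed in size, which bears on every count of shared peaks. They held 57946 to 161136 peaks in the 4 FOXA2-construct lists, 19862 and 25088 in the 2 wild-type lists of the FOXA2 set, and 110813 to 177650 in the 3 lists of the SOX2 set. The read depth behind them is unknown. The lowest −log10 p was 5.22 in the second FOXA2 list, and 3.44 and 5.43 in the 2 wild-type lists of that set. It was 2.01 in the first FOXA2 list and in both FOXA2dCTD lists, and 1.65 to 1.78 in the SOX2-set lists. Both wild-type lists of the FOXA2 set were thus cut more strictly than every FOXA2-construct list but the second FOXA2 list. A signal between these limits could be listed with a construct and not in these wild types. As a check on the labels, the span of the FOXA2 gene held at least 1 peak in every list, wild types included. Its highest fold enrichment was 5.76 and 44.3 in the FOXA2 lists, 6.94 and 7.07 in the FOXA2dCTD lists, and 5.19 and 14.7 in the wild-type lists of the FOXA2 set. Peaks in this span therefore do not separate transgenic from wild-type lists.

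Sequence could be read for 7 members, those that overlapped the 250 bases upstream of a gene start in RefSeq's GRCh38.p14 annotation. The overlaps are unusual for these regions, which mostly lie far from starts, and windows are shown because they are the promoter DNA that members reached. Not all 7 are printed. Those of the long non-coding RNA genes LOC124900847, LOC112268165 and LOC124904281, none with a motif match, are left out. An overlap with the merged region does not mean that every list's peak covered the window, and the region at ACSL1 had no base under peaks of all 6 lists. Capitals mark matches to 5 motifs searched on both strands: forkhead TGTTTAC, SOX CATTGTT, AP-1 TGANTCA, TEAD GGAATG and RUNX TGTGGTT, none of which contains another. Each window is given 5′ to 3′ on the strand of its gene and ends at the base before the start.
C4orf54, chr4:99657829-99658078, minus strand, 1 AP-1 match: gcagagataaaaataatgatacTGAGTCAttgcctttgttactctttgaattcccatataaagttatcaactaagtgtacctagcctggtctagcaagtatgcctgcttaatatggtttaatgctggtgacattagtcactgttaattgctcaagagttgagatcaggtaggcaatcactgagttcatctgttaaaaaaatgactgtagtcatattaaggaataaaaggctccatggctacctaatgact
ACSL1, chr4:184808532-184808781, minus strand, 2 TEAD matches: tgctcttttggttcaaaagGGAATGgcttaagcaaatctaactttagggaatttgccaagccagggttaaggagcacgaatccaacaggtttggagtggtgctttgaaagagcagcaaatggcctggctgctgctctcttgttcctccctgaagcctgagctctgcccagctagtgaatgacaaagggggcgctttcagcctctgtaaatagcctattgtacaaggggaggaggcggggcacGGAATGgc
BTBD10, chr11:13440256-13440505, minus strand, no match: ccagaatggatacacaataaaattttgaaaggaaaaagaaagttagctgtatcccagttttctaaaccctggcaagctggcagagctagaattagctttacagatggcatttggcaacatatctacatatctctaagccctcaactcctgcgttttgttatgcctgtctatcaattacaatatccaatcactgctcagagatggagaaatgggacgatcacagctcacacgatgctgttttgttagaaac
LOC105376003, a long non-coding RNA gene inside LINGO2, chr9:28619811-28620060, plus strand, 1 RUNX match on the opposite strand: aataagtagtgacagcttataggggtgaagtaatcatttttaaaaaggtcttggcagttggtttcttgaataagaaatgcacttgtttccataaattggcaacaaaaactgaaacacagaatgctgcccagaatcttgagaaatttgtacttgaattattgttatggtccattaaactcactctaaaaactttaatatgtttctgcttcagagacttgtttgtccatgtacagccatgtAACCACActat

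Neither the forkhead nor the SOX word occurred in any of the 7 windows, whereas 2.98% and 2.85% of all 34961 windows held them. With 7 windows, a count of 0 allows a share of up to 35.4% (Wilson 95% interval), so the 2 shares could not be compared at this number. The AP-1, TEAD and RUNX words were each found in 1 window, against 6.54%, 11.9% and 3.65% of all windows. A match describes letters and does not locate a bound factor, and a missing match says only that the letters are not in the window. The 7 windows were poor in G and C, with a median of 39.2% against 58.4% over all windows. The corresponding medians were 36.0% over 21 windows met by regions that opened with FOXA2 alone, 42.0% over 327 that opened with SOX2 alone, and 64.4% over 6914 met by regions with a peak in all 9 lists. Low GC content is thus a feature that the few promoter-overlapping members share with the other gained regions.

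The first question was how many regions with a peak in all construct lists were also accessible without a construct. Of 19325 regions with a peak in all 6 construct lists, 1074 (5.56%, Wilson 95% interval 5.24 to 5.89) had no wild-type peak. Intervals on shares cover counting error only, since regions are not replicates of a condition. The largest of the other patterns was a peak in all 3 wild-type lists, with 8417 regions, called constitutive here. A further 3842 regions had an entry in the SOX2-set wild type alone, 3165 in that list and the second wild-type list of the FOXA2 set, 2185 in that list and the first, and 532 in the second wild-type list alone. Membership therefore depended mostly on the wild-type list of the SOX2 set.

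**Figure D1:**
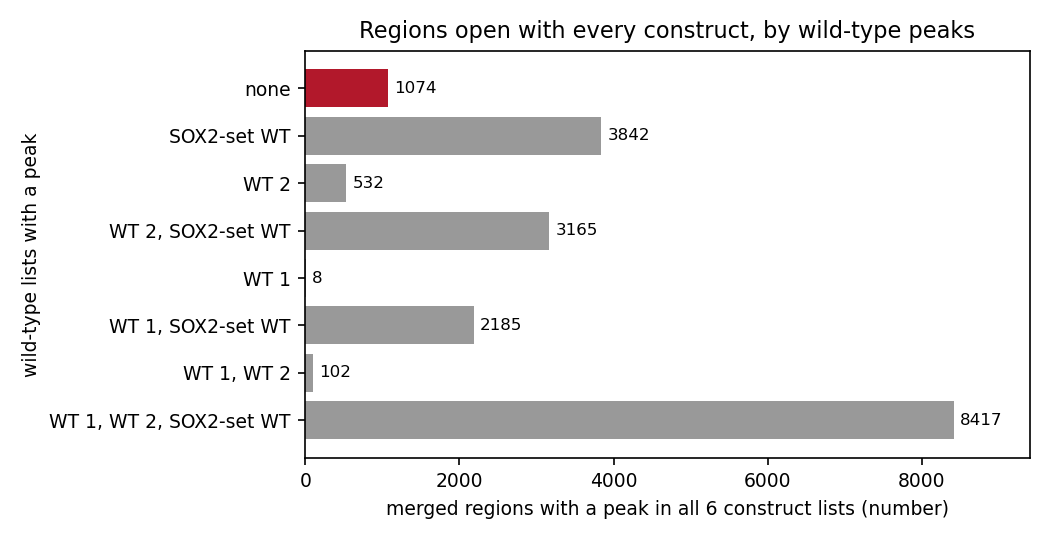
Number of regions with a peak in all 6 construct lists, by which wild-type lists also held a peak; each bar is a count of merged regions. The 1074 members are the bar with no wild-type peak, and the 3842 regions with an entry in the SOX2-set wild type alone and the 8417 with a peak in all 3 are both larger.

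The order of the filters shows the same. Counting only the wild types of the FOXA2 set, 11988 regions had a peak in all 4 FOXA2-construct lists and in neither wild type. Of these, 4916 (41.0%, 40.1 to 41.9) had entries with both SOX2 and the fusion. Among those 4916, 3842 (78.2%, 77.0 to 79.3) also had an entry in the wild type of the SOX2 set. For 2753 of the 3842 (71.7%) that entry had an irreproducible discovery rate (IDR) of at most 0.05. The IDR is estimated from how consistently peaks rank in the 2 inputs. Most regions that looked gained by both factors against the FOXA2-set wild types were thus listed in the other wild type. These 3842 regions are called baseline regions below. The wild-type list of the SOX2 set held 110813 peaks against 19862 and 25088 in the other wild types, and the part of this difference was not tested.

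The second question was whether FOXA2-gained and SOX2-gained regions coincided more than other regions did. Among 7792 regions with a peak in all 4 FOXA2-construct lists and no wild-type peak, the members were 13.8% (13.0 to 14.6). Among all 283557 regions with no wild-type peak, 18.3% had entries in both SOX2-construct lists. In the other direction, the members were 2.08% (1.96 to 2.2) of 51753 regions with both SOX2-construct entries, and 2.75% of the 283557 regions had a peak in all 4 FOXA2-construct lists. Both shares were below these backgrounds, but the direction turned with the regions set beside them. A merged region exists only because some list holds it, so the 92421 regions with no FOXA2-construct peak are present through an entry of the SOX2 set, and 43.6% of them had both SOX2-construct entries. Among the 191136 regions with a peak in any FOXA2-construct list, 5.97% had both SOX2-construct entries, below the 13.8% of those with all 4. Among the 113265 regions with an entry in either SOX2-construct list, 1.49% had all 4 FOXA2-construct peaks, below the 2.08% of those with both. No excess or shortage of shared regions is therefore read from these shares.

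Regions found in more of the FOXA2-construct lists did not overlap SOX2 entries more often beyond the second list. Both SOX2-construct entries were present at 4.33% of 156724 regions with a peak in 1 FOXA2-construct list, 13.2% of 17753 with a peak in 2, 13.7% of 8867 with a peak in 3 and 13.8% of 7792 with a peak in all 4. The median width of these regions also differed, at 211, 511, 639 and 752 bp in the same order, and a wider region has more room for an overlap. The part of width in these shares was not tested. At 22.1% of the SOX2-gained regions (11417 of 51753) at least 1 FOXA2-construct list had a peak.

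Strength on the FOXA2 side and on the SOX2 side related differently to membership. The 7792 FOXA2-gained regions were put in 5 equal groups by the lowest percentile of their −log10 p among all peaks of each of the 4 lists. The members made up 15.5% (13.7 to 17.3) of the weakest group, 14.5%, 14.5% and 14.4% of the next 3, and 10.1% (8.67 to 11.7) of the strongest. On the SOX2 side the members made up 1.75% (1.51 to 2.02) of the weakest of 5 groups, 1.5%, 2.02% and 2.29% of the next 3, and 2.82% (2.52 to 3.16) of the strongest. The most strongly FOXA2-gained regions were thus the least often shared, and the most strongly SOX2-gained the most often. In both cases the interval of the strongest group did not overlap that of the weakest.

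**Figure D2:**
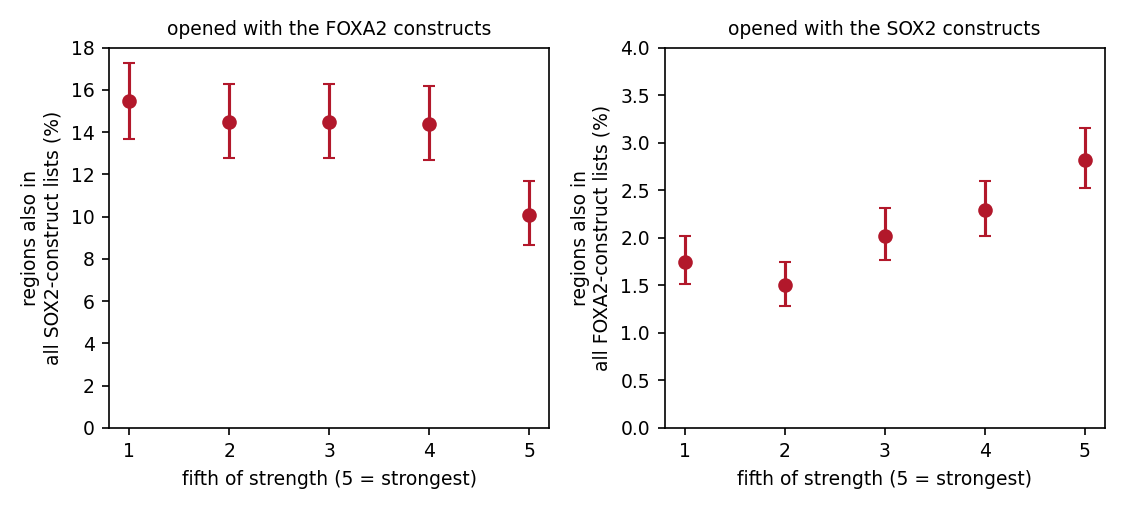
Share of gained regions that are members, in percent, for 5 equal groups of rising peak strength; the left panel holds the 7792 FOXA2-gained regions and the right panel the 51753 SOX2-gained regions, and bars are Wilson 95% intervals. The share falls to 10.1% in the strongest FOXA2 group and rises to 2.82% in the strongest SOX2 group.

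The members were compared in position with 4 other classes: 6105 FOXA2-only regions (all 4 FOXA2-construct lists, no wild type and nothing in the SOX2 set), 40336 SOX2-only regions (both SOX2-construct lists, no FOXA2-construct and no wild-type peak), the baseline regions and the constitutive regions. Position played no part in the choice. The members lay far from gene starts, as did both single-factor classes. Only 13 members (1.21%, 0.709 to 2.06) came within 1000 bp of an annotated start, beside 1.16% of FOXA2-only and 1.49% of SOX2-only regions, 29.4% of baseline regions and 51.6% of constitutive regions. The members' interval includes the value of both single-factor classes and lies well below the other 2. The median distance to a start was 55805.5 bp for members, 58917 bp for FOXA2-only, 59116.5 bp for SOX2-only and 16061.5 bp for baseline regions. The start table covers 15812 of 19974 protein-coding genes, so the shares near a start are lower limits. The members' share also depended on how they were defined: it was 10.9% with an IDR of at most 0.05 required in all 3 SOX2-set lists, 4.94% at a common −log10 p threshold, 2.61% for windows around the summits and 23.1% against the FOXA2-set wild types only.

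**Figure D3:**
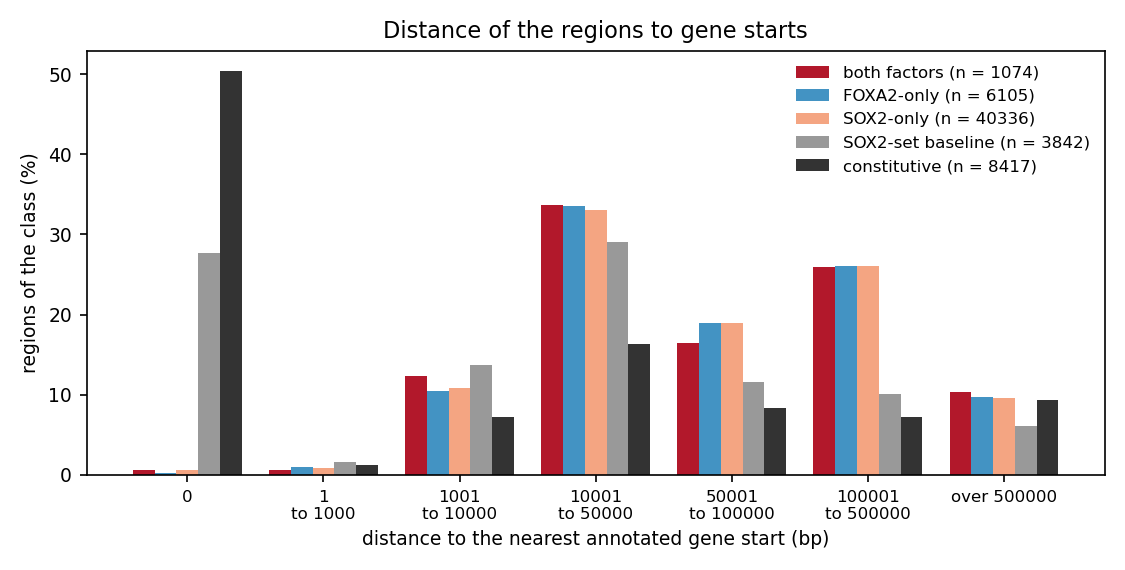
Share of regions, in percent, in bins of distance to the nearest annotated gene start, in bp, for the members and the 4 other classes. The members follow the FOXA2-only and SOX2-only regions and are rare near starts, where 51.6% of constitutive regions lie within 1000 bp.

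Within the genome's genes, 523 members (48.7%, 45.7 to 51.7) touched the span of a protein-coding gene, beside 45.8% of FOXA2-only and 42.0% of SOX2-only regions. A further 130 (12.1%) touched only a long non-coding RNA gene, and 421 (39.2%) touched neither. The share in protein-coding spans was above that of SOX2-only regions, whose value lies outside the members' interval. Members were also wider, with a median of 920.5 bp (quartiles 774.25 and 1116) against 728 bp for FOXA2-only and 661 bp for SOX2-only regions, and a merge of 6 lists widens a region by construction. Exons and introns were not analysed here. Long gaps were common: 390 members (36.3%) lay over 100 kb from a start and 112 (10.4%) over 500 kb.

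Most members lay well away from wild-type peaks. The nearest wild-type peak lay a median of 10563 bp away, beside 10822 bp for FOXA2-only and 10456 bp for SOX2-only regions. It lay within 1 kb for 52 members (4.84%) and within 5 kb for 255 (23.7%, 21.3 to 26.4). The shares within 5 kb were 27.4% and 27.5% for the single-factor classes, both just above the members' interval. The members were also scattered, since 14 (1.3%) lay within 10 kb of another member and 96 (8.94%) within 100 kb.

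Every chromosome examined held members. Chromosome 2 had 110 (10.2%), chromosome 1 had 96 and chromosome 3 had 90. Against the share of all merged regions, the members' interval lay higher on chromosome 4 (7.91%, 6.45 to 9.68, against 6.32%) and chromosome 8 (7.54%, 6.11 to 9.28, against 5.7%). It lay lower on chromosome 17 (1.68%, 1.06 to 2.63, against 2.88%) and on chromosome 19, rich in genes (0.652%, 0.316 to 1.34, against 1.57%). On the other chromosomes the interval included the share of all regions, X among them with 17 members (1.58%, 0.991 to 2.52, against 2.44%). The shares of FOXA2-only and SOX2-only regions lay inside the members' interval on chromosome 4 (8.16% and 7.49%). The same held on chromosome 17 (2.18% and 1.87%) and chromosome 19 (0.557% and 0.964%). On chromosome 8 their 6.08% and 5.97% lay just below the interval, and on X their 2.56% and 3.35% lay above it. The intervals are not adjusted for the number of chromosomes.

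The strength of a peak describes how far a list's own threshold was passed. It is read here only within a list, either as the authors' value or as a percentile among all peaks of that list, because the lists were scaled separately. The members' median fold enrichment, the height of the peak over the local background, was 4.42 (quartiles 3.74 and 5.21) and 6.82 (5.8 and 8.52) in the 2 FOXA2 lists. In the 2 FOXA2dCTD lists it was 4.34 (3.63 and 5.18) and 4.68 (3.93 and 5.5). The SOX2-set lists give −log10 p, with medians of 6.42 (4.36 and 10.9) for SOX2 and 7.0 (4.55 and 11.3) for the fusion. In all 6 lists the members spread from peaks near the list's limit to peaks at percentile 98.9 or above.

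As percentiles, the members' medians were 81.7 and 53.6 in the FOXA2 lists, 68.1 and 80.2 in the FOXA2dCTD lists, 54.8 for SOX2 and 67.2 for the fusion. FOXA2-only regions had medians of 86.6 and 63.5 with FOXA2, and 68.1 and 80.2 with FOXA2dCTD. The members were thus lower than FOXA2-only regions in both FOXA2 lists and level with them in both FOXA2dCTD lists. SOX2-only regions had medians of 47.5 with SOX2 and 59.3 with the fusion, both below the members. Constitutive regions ranked above the members in all 6 lists, with medians from 83.9 to 95.5. Presence in all the lists chose the members, so these levels are a description.

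**Figure D4:**
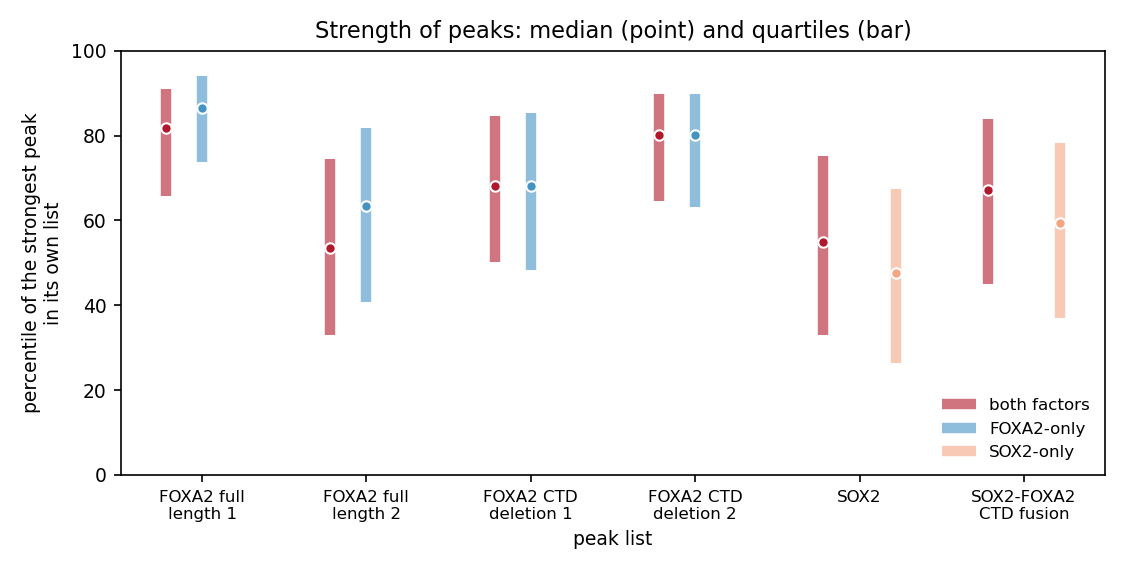
Percentile of the strongest peak among all peaks of its own list, in the 6 construct lists, for members, FOXA2-only and SOX2-only regions; points are medians and bars span the quartiles. The members' medians run from 53.6 to 81.7, lie below the FOXA2-only medians in both full-length FOXA2 lists and lie above the SOX2-only medians in both SOX2-construct lists.

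Both full-length FOXA2 percentiles were above both FOXA2dCTD percentiles at 12.1% of members (10.3 to 14.2). The reverse held at 20.9% (18.6 to 23.5). At FOXA2-only regions the same shares were 17.5% and 13.9%. These lists differ in length and threshold, so no direction is read from the shares. With 2 lists a group, no exact two-sided permutation test of a single region can pass 0.05. The fusion had a higher −log10 p than SOX2 at 52.3% of members (49.3 to 55.3) and at 51.4% of SOX2-only regions, and the members' interval includes an even split. As percentiles, the fusion was higher at 69.7% of members and 67.7% of SOX2-only regions, and the 2 lists differ in length, so no direction is read from it.

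Peaks of the SOX2 set were entered at any IDR. An IDR of at most 0.05 was reached by 513 members (47.8%) with SOX2, by 687 (64.0%) with the fusion, by 421 (39.2%) with both and by neither list in 295 (27.5%). These 295 members therefore rest on SOX2-set entries that were not reproducible at that level. Entries at high IDR were not particular to the members. Their median IDR was 0.0636 with SOX2 and 0.0165 with the fusion, below the 0.125 and 0.0401 of SOX2-only regions.

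Ranks within the members were related within a set and hardly between sets. Across the 1074 members, Spearman's rho of the percentiles was 0.605 between SOX2 and the fusion and 0.244 to 0.417 over the 6 pairs of FOXA2-set lists. Over the 8 pairs that cross the sets it was 0.000137 to 0.0739. A member's rank with FOXA2 thus said little about its rank with SOX2. The sets differ both in factor and in how their lists were made, and the part of each was not tested. At the constitutive regions, rho across the sets was 0.318 to 0.448, and at the baseline regions 0.0557 to 0.219. These are descriptions across regions, which share their lists and depth.

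Summit distances within members varied among pairs of FOXA2-set lists as well as across the sets. Their medians were 116.5 to 155 bp over the 6 pairs of FOXA2-set lists and 108 to 189 bp over the 8 pairs across the sets. The summits of SOX2 and the fusion lay a median of 62 bp apart within a member, with 73.2% (70.5 to 75.7) within 100 bp. The summits of the second FOXA2 list and of SOX2 lay a median of 108 bp apart, with 47.4% (44.4 to 50.4) within 100 bp and 217 (20.2%, 17.9 to 22.7) more than 300 bp apart. At constitutive regions the same 2 lists had summits a median of 70 bp apart, with 65.3% within 100 bp and 6.87% over 300 bp. Baseline regions were between, with 58.5% and 11.1%. In this FOXA2 list the summits thus coincided with those of SOX2 less often in members than in regions open in wild-type cells. The members' peaks were also weaker than those of constitutive regions in both lists, and the part of strength in the distances was not tested.

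The other 3 FOXA2-construct lists did not show this difference within 100 bp, and their summits sit off-centre in constitutive regions too. Between the first FOXA2 list and SOX2 the median distance was 187 bp in members and 166 bp in constitutive regions, where 24.0% and 23.3% lay within 100 bp. Even the 2 FOXA2 lists had summits 151 bp apart in members and 152 bp in constitutive regions. In the first FOXA2 list, 25.7% of members and 11.3% of constitutive regions had summits over 300 bp from that of SOX2. For the FOXA2dCTD lists, 25.9% (23.4 to 28.6) and 24.5% (22 to 27.1) of members had summits within 100 bp of SOX2, against 24.7% and 26.8% of constitutive regions. The difference within 100 bp thus rests on 1 of the 4 lists.

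**Figure D5:**
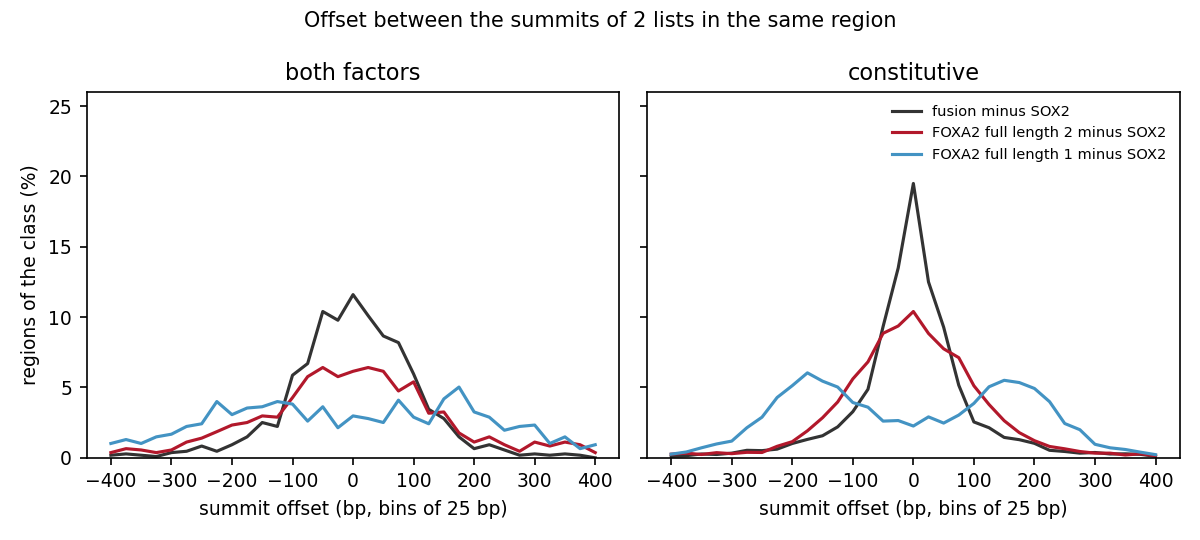
Signed offset in bp from the SOX2 summit to the summit of another list in the same region, as a percent of the regions of the class, for members (left) and constitutive regions (right); each line is 1 other list. Offsets of the second FOXA2 list centre on 0 and spread wider in members (47.4% within 100 bp) than in constitutive regions (65.3%), while those of the first FOXA2 list spread to both sides of the centre in both classes.

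Overlap within a merged region does not mean that the same bases were covered. In 796 members (74.1%, 71.4 to 76.6) at least 1 base lay under a peak of all 6 construct lists, with a median of 182 bp (quartiles 90.75 and 295). In the other 278 the lists' peaks were joined only through one another. Whether FOXA2-set and SOX2-set peaks overlapped each other in these 278 was not tested.

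Many regions missed membership by a single construct list. With no wild-type peak, 546 regions lacked a peak in the second FOXA2 list alone, 489 in SOX2 alone, 422 in the first FOXA2dCTD list alone, 135 in the first FOXA2 list alone, 124 in the fusion alone and 111 in the second FOXA2dCTD list alone. The 2 FOXA2-set lists most often missing are also the smallest of the 4. Where SOX2 alone was missing, the fusion's median percentile was 30.4, and where the fusion alone was missing, that of SOX2 was 19.9. The regions just outside the rule on the SOX2 side were therefore weak in the list that did hold them.

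The members are now given singly, ordered by the lowest of their 6 percentiles, so that a leading member is strong in every list. Fold enrichment is listed for the first and second FOXA2 lists and then the first and second FOXA2dCTD lists, followed by −log10 p for SOX2 and the fusion. In the regions named, this −log10 p equals the lower of the values of the 2 inputs. The leading region, chr14:73293427-73294556, lay inside NUMB, whose product restrains Notch signalling and directs cell fate. Its fold enrichment was 5.51, 15, 5.68 and 7.89, and its −log10 p was 26.8 and 27.9. It stood at or above percentile 94.1 in all 6 lists, 7182 bp from the nearest wild-type peak, with 515 bp under peaks of all 6.

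The next in order, chr5:32559081-32560243, lay between genes, 25313 bp from SUB1, which encodes a transcriptional coactivator. Its fold enrichment was 6.0, 16.7, 5.73 and 5.98, and its −log10 p was 17.1 and 13.7. The third, chr2:187359925-187360886, lay in CALCRL, the receptor for calcitonin gene-related peptide and adrenomedullin. Its fold enrichment was 5.21, 13.6, 7.04 and 5.21, and its −log10 p was 20.0 and 15.2. A wild-type peak lay only 1085 bp from it.

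The fourth, chr10:58745866-58747301, lay in BICC1, an RNA-binding protein of kidney and left-right development, with fold enrichment of 6.37, 10.6, 6.15 and 6.7 and −log10 p of 28.8 and 20.6. The fifth, chr4:53461155-53461964, lay in LNX1, a ubiquitin ligase that acts on NUMB, the product of the gene holding the leading region. Its fold enrichment was 6.19, 10.6, 5.38 and 6.42, and its −log10 p of 41.9 for SOX2 was the highest of any member in that list. With the fusion it was 31.6. This region was thus the strongest SOX2 gain among the members, while its FOXA2-set values were like those of the other leading regions.

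The seventh, chr5:134975292-134976527 in CATSPER3, a subunit of a sperm calcium channel, had fold enrichment of 5.56, 10.2, 6.5 and 5.88 and −log10 p of 17.2 and 17.3. It was remote from wild-type peaks, at 46664 bp. The eighth, chr5:104998072-104999268, lay in a gene desert 1435282 bp from the nearest protein-coding span, that of NUDT12. Its fold enrichment was 6.82, 14, 10.2 and 6.41, and its −log10 p was 15.9 and 11.6.

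The ninth, chr6:65447162-65448065, lay in EYS, a photoreceptor gene, 97899 bp from a wild-type peak. Its fold enrichment was 4.73, 9.89, 5.49 and 4.7, and its −log10 p was 17.7 and 13.6. The tenth, chr6:6576456-6578194, lay 10525 bp from LY86, a gene of innate immunity, with fold enrichment of 6.13, 9.55, 6.25 and 4.76 and −log10 p of 14.5 and 16.2. Each of these regions was highest in the second FOXA2 list, whose values run higher in every class. By contrast, the last region in the order, chr3:72800437-72801203 in SHQ1, a gene of small nucleolar RNP assembly, had fold enrichment of 5.61, 10.2, 4.77 and 4.09, above the members' upper quartile in both FOXA2 lists, but −log10 p of 1.81 and 3.46 with SOX2 and the fusion.

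Of the 13 members near a start, 8 were near that of a protein-coding gene. In 3 of them the region covered the start. At C4orf54, whose upstream window with an AP-1 match is printed above, region chr4:99657669-99658537 had fold enrichment of 4.25, 6.48, 5.08 and 4.85 and −log10 p of 11.7 and 7.9. At ACSL1, which activates long-chain fatty acids, chr4:184807783-184808924 had 3.72, 5.11, 3.74 and 3.47, and 4.69 and 7.65. At BTBD10, chr11:13439978-13440574 had 4.42, 4.77, 3.47 and 6.43, and 9.12 and 9.92. In the order of strength these 3 stood at positions 237, 743 and 863 of 1074.

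The other 5 lay 744 to 1000 bp from a start. They were near ZFAND6, a zinc finger gene (890 bp), RIOK1, a kinase of ribosome assembly (744 bp), ETV6, an ETS-family repressor (1000 bp), the olfactory receptor gene OR4D11 (917 bp) and PPP2R5A, a regulatory subunit of protein phosphatase 2A (878 bp). Those near ZFAND6, RIOK1 and ETV6 lay 581, 164 and 476 bp from a wild-type peak. The region near ZFAND6, chr15:80070807-80071672, had fold enrichment of 3.47, 7.5, 4.51 and 3.33 and −log10 p of 16.9 and 8.48. No member overlapped any of the 1558 miRNA hairpins placed in the annotation. The 6105 FOXA2-only regions overlapped 2 and the 40336 SOX2-only regions overlapped 10. Such overlaps are thus rare in the like classes too, and no difference is read from the members' count.

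By gene, 482 protein-coding spans held at least 1 member, 42 held at least 2 and 7 held at least 3. EYS (1990 kb long) and MACROD2 (2060 kb), a gene for an ADP-ribose hydrolase, held 4 each. ZFPM2 (486 kb), a cofactor of GATA factors, and MDGA2 (836 kb), a synaptic adhesion molecule, held 3 each, as did LINGO2 and SGCD. All 7 are long genes that also held 2 to 10 FOXA2-only and 9 to 35 SOX2-only regions. SOX2-only regions outnumbered members in each of them, as they did over all regions, at 40336 against 1074. ZFPM2 held 3 members beside 2 FOXA2-only and 9 SOX2-only regions. These genes were picked for holding the most members, so no share of members is read from them.

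The 6 lists of genes were read by position, counting a member in the span or within 10 kb. The background was 577 of 19974 protein-coding genes, or 2.89%. FOXA2-only regions lay at 12.3% and SOX2-only regions at 39.0% of the same genes. None of 30 FOXA endoderm and liver genes had a member, while 2 (6.67%) had a FOXA2-only and 12 (40.0%) a SOX2-only region. Of 24 SOX2 pluripotency and neural genes, 1 had a member, while 3 (12.5%) had a FOXA2-only and 10 (41.7%) a SOX2-only region. None of 20 osteoblast and mesenchyme genes, 15 AP-1 family genes or 17 TEAD and YAP genes had one. Of 15 genes of the integrated stress response, 2 had one. Counts of 0 to 2 are too small to be set apart from 2.89%, and a gene's length was not accounted for.

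The stress-response genes with a member were ASNS, which makes asparagine, and MTHFD2, a mitochondrial enzyme of folate metabolism. The region in ASNS, chr7:97901656-97902339, had fold enrichment of 4.12, 5.8, 4.33 and 4.49 and −log10 p of 13.2 and 5.53. The region near MTHFD2, chr2:74190751-74191587, lay 7027 bp outside the gene and had 5.5, 8.52, 5.44 and 4.0, and 9.03 and 9.71. By its lowest percentile the MTHFD2 region stood at position 57 of the order and the ASNS region at 469. The ASNS region was the stronger with SOX2 and in the second FOXA2dCTD list, and the MTHFD2 region in the other lists.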

How the data were processed

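Peak lists deposited by the authors were used, in hg38 coordinates. Per the submitters' processing notes, the tools included FastQC 0.10.1, Trim Galore, Bowtie2 2.4.4, SAMtools 0.1.18, MACS2 and deepTools 2.4.1; settings are not given in the sources used here. The 6 lists of the FOXA2 set, 1 for each library, hold the deposited fold enrichment (a ratio to local background), −log10 p and −log10 q. The 3 lists of the SOX2 set have the layout of IDR output from 2 inputs, with the authors' −log10 p, score and IDR, and are not limited by IDR. Read depth is unknown, so peak counts are not corrected for it. List positions count from 0 and are printed from 1.

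Peaks on the 22 autosomes and X of all 9 lists were merged where they shared 1 bp or more, and the classes were taken from presence in each list (Python 3.11.15, numpy 2.4.6, pandas 2.3.3, matplotlib 3.10.9). A region's value in a list is that of its strongest peak by −log10 p. Gene spans, starts and promoter sequences came from RefSeq tables (GRCh38.p14); sequence of the regions themselves was not used here. The code was checked on simulated lists. No tests were run, because presence chose the members, an exact permutation test of 2 libraries against 2 cannot pass 0.05 and regions are not replicates; Wilson 95% intervals cover counting error only.

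Named are the 10 members with the highest lowest percentile, those within 1000 bp of a protein-coding start, the 5 genes with most members, and listed genes with a member within 10 kb; 2 genes that this rule names, with their regions, are not reported here. The SHQ1 region, LINGO2 and SGCD were added after their values were seen. The members, rule and gene lists were chosen with earlier results of these data known. Alternatives were IDR, peak number, −log10 p, overlap, wild-type and left-out-list settings.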

Additional observations from a re-analysis of the deposited data

How the results depend on the processing

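The number of members depended on the lists' thresholds and on the wild types used. It was 1074 as reported, 421 with an IDR of at most 0.05 required of SOX2 and the fusion, 243 at a common −log10 p of at least 5.43 and 23 with the strongest 19862 peaks of each list. The 243 regions overlapped 157 of the 1074 members and the 23 overlapped 13, so neither count is of members alone. It was 4875 against the FOXA2-set wild types only and 1715 against the SOX2-set wild type only. Leaving out 1 FOXA2-set list at a time gave 1082 to 1616, the highest without the second FOXA2 list, and 1605 without the second wild-type list. The share near a gene start, 1.21% as reported, was 23.1% against the FOXA2-set wild types only, 10.9% with an IDR of at most 0.05 in all 3 SOX2-set lists (902 regions, of which 421 members), 4.94% at the common −log10 p, 2.61% for windows of 100 bp to each side of the summits, 2.51% within 2500 bp of a start and 0.0% of the 23. Left-out lists gave 1.29% to 1.53%. Either end of a protein-coding span, a setting chosen after seeing the data, gave 2.05%. Where a looser wild type was used, regions open in wild-type lists entered the set by construction; other causes were not tested. Motif shares over the regions were not run, since no genome was used here. No paired analysis was possible because the results come from no test and the SOX2 set has 1 list for each group. Unknown depth limits every absence: a missing peak is not closed chromatin.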
